A study of Mus musculus with 4 samples.

Results

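The 7 genes of the mouse cyclin-dependent kinase inhibitors (Cdkn1a, Cdkn1b, Cdkn1c, Cdkn2a, Cdkn2b, Cdkn2c and Cdkn2d) were followed by cell type in healing tibial fractures of old mice. They were found by symbol, and all 7 were present among the 32285 genes listed in the files. Single-cell RNA libraries had been made from calluses, the repair tissue that forms around a fracture, of 20-month-old male C57BL/6J mice. The calluses had received either a control microgel, which held no adenosine, or a microgel loaded with adenosine, and were harvested 7 days after treatment. There were 4 libraries, 2 from each treatment, named here control 1, control 2, adenosine 1 and adenosine 2. All mice shared age, sex and strain, and no genetic change was named. The labels give the tissue as bone marrow although their protocol describes minced callus, and red cells were lysed and viable cells sorted by exclusion of propidium iodide. They do not say whether the libraries came from separate animals, and p-values therefore describe the spread among these 4 libraries alone, which may be technical.

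Progression from G1 to S phase is driven by cyclin D with Cdk4 or Cdk6 and by cyclin E with Cdk2, which phosphorylate the retinoblastoma protein and its relatives and so release E2F transcription factors. The inhibitors form 2 families. The Cip/Kip proteins p21 (Cdkn1a), p27 (Cdkn1b) and p57 (Cdkn1c) bind cyclin and kinase together and act on several complexes. The Ink4 proteins p16 (Cdkn2a), p15 (Cdkn2b), p18 (Cdkn2c) and p19Ink4d (Cdkn2d) bind Cdk4 and Cdk6 alone. Cdkn2a also encodes p19Arf from a second start, a protein that stabilises p53. Cdkn1a and Cdkn2a are widely used as marks of senescent cells in aged tissue, and Cdkn1b and Cdkn2d are known in cells that leave the cycle.

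The windows around annotated transcript starts were searched for letters of 3 motifs, because Cdkn2c and Cdkn1a are described below beside lists of E2F and p53 genes and because the Cdkn2a count mixes transcripts of 2 starts. RefSeq promoter sequence on GRCm38.p6 was given for 6 of the 7 members in 9 windows of 300 bases, each with 250 bases before the start and 50 after it. The motifs were E2F (TTCCCGC or TTGGCGC, both strands), the cyclic AMP response element (TGACGTCA, its own reverse complement) and the p53 half-site. E2F letters were in 6.81% of all 32851 promoter windows, the cyclic AMP response element in 1.79% and the p53 half-site in 8.36%. The 250 bases before 4 starts are shown 5′ to 3′ with matched letters in capitals. The first Cdkn2c start (chr4:109666757-109667006, minus strand) and the Cdkn2a start of the Arf transcript (chr4:89294620-89294869, minus strand) each had 1 E2F match. The Cdkn2a start of the Ink4a transcript (chr4:89282193-89282442, minus strand) had no match to any of the 3 motifs. The first Cdkn1a start (chr17:29090729-29090978, plus strand) had 2 p53 half-site matches.
Cdkn2c first start: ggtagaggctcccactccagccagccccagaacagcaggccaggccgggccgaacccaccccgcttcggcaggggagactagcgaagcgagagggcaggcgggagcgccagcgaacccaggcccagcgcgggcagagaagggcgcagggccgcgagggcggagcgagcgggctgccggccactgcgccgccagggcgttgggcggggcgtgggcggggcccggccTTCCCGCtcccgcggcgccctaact
Cdkn2a Arf start: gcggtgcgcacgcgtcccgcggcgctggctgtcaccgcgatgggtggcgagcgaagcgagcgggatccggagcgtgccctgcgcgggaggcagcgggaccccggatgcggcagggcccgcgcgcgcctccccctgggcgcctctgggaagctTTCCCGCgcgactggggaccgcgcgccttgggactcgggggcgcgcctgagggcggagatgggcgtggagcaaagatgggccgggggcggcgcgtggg
Cdkn2a Ink4a start: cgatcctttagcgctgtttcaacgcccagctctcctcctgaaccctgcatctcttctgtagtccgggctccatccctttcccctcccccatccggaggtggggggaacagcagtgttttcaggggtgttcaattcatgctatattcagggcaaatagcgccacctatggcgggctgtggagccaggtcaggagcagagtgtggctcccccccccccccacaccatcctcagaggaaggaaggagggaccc
Cdkn1a first start: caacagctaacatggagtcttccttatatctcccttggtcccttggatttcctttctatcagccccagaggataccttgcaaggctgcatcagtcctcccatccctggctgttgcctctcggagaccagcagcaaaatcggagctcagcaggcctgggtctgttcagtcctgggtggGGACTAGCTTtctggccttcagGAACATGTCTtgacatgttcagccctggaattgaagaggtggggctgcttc
Of the other windows, that of Cdkn2b held 1 cyclic AMP response element and that of Cdkn2d 1 p53 half-site. The window of Cdkn1b and the second windows of Cdkn2c and Cdkn1a held none. A match describes letters only, and no match says only that these letters are not in that window.

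The genes lie apart except for Cdkn2a and Cdkn2b. On GRCm38, Cdkn1a is at chr17:29090976-29100727 on the plus strand and is overlapped by the gene AC167363.2 on the opposite strand. Cdkn1b is at chr6:134920401-134925513 (plus strand). Cdkn1c is at chr7:143458339-143461050 (minus strand) and is overlapped by Gm44732 on the opposite strand. Cdkn2a (chr4:89274471-89294653) and Cdkn2b (chr4:89306299-89311039) are neighbours on the minus strand, 11645 bases apart, and the 2 annotated Cdkn2a transcripts start 12461 bases apart. Cdkn2c is at chr4:109660876-109667189 and Cdkn2d at chr9:21288410-21291407, both on the minus strand.

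The libraries held 6753 to 9949 cell barcodes and 32277757 to 68117846 unique molecular identifiers (UMIs, counted molecules), and 31280 cells remained after filters and removal of likely doublets. Each pair of libraries shared 10 to 24 barcodes. Cells were assigned to types by marker genes, so that every type named below is "like" that type by its markers, and 28595 cells received 1 of 20 types. A cell was called dividing from 43 genes of DNA replication and mitosis, none of them a member. Control 2 stood apart before any member was considered: dividing cells were 1.42% of its cells, against 13.0% in control 1, 16.3% in adenosine 1 and 17.0% in adenosine 2. It held 3938 mature and 208 non-dividing immature neutrophils, where the other libraries held 1641 to 2669 and 1966 to 2475. Results that rest on control 2 are given with and without it. Levels are given as CPM, UMIs of the gene per 1000000 UMIs of all genes in that library's cells of the type, for groups of at least 25 cells unless cells are counted. In such sums, fewer cells that express a gene and less of its RNA per cell cannot be told apart. Libraries were prepared from transcript 3′ ends, so levels are compared between cells and not between genes.

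Members differed in how many cells held them and in where those cells were. Summed over all libraries, Cdkn2d had 21242 UMIs in 11502 cells, Cdkn1b 14816 in 10468, Cdkn1a 9643 in 3692 and Cdkn2c 7362 in 3808. Cdkn2a had 371 UMIs in 229 cells, Cdkn1c 251 in 136 and Cdkn2b 111 in 76. Pooled over libraries, non-dividing mature neutrophils gave 35.3% and non-dividing monocytes 25.4% of Cdkn1a UMIs. Control 2 alone held 3232 of the 3408 Cdkn1a UMIs in mature neutrophils, and without it their share was 5.33% and that of monocytes 25.8%. For Cdkn2c the leading sources were dividing monocytes (31.7%) and dividing immature neutrophils (22.8%). Dividing T cells gave 43.1% of the pooled Cdkn2a UMIs, but 159 of those 160 UMIs came from adenosine 2, and without it the share was 1.10% (1 of 91 UMIs). Mesenchymal cells gave 43.8% of the pooled Cdkn1c UMIs, of which 106 of 110 came from adenosine 1, and without it the share was 4.49% (4 of 89 UMIs). Dendritic cells gave 35.1% of Cdkn2b UMIs, and 29.3% to 41.2% when 1 library at a time was left out. These shares depend on how many cells of each type were captured as well as on their level.

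**Figure D1:**
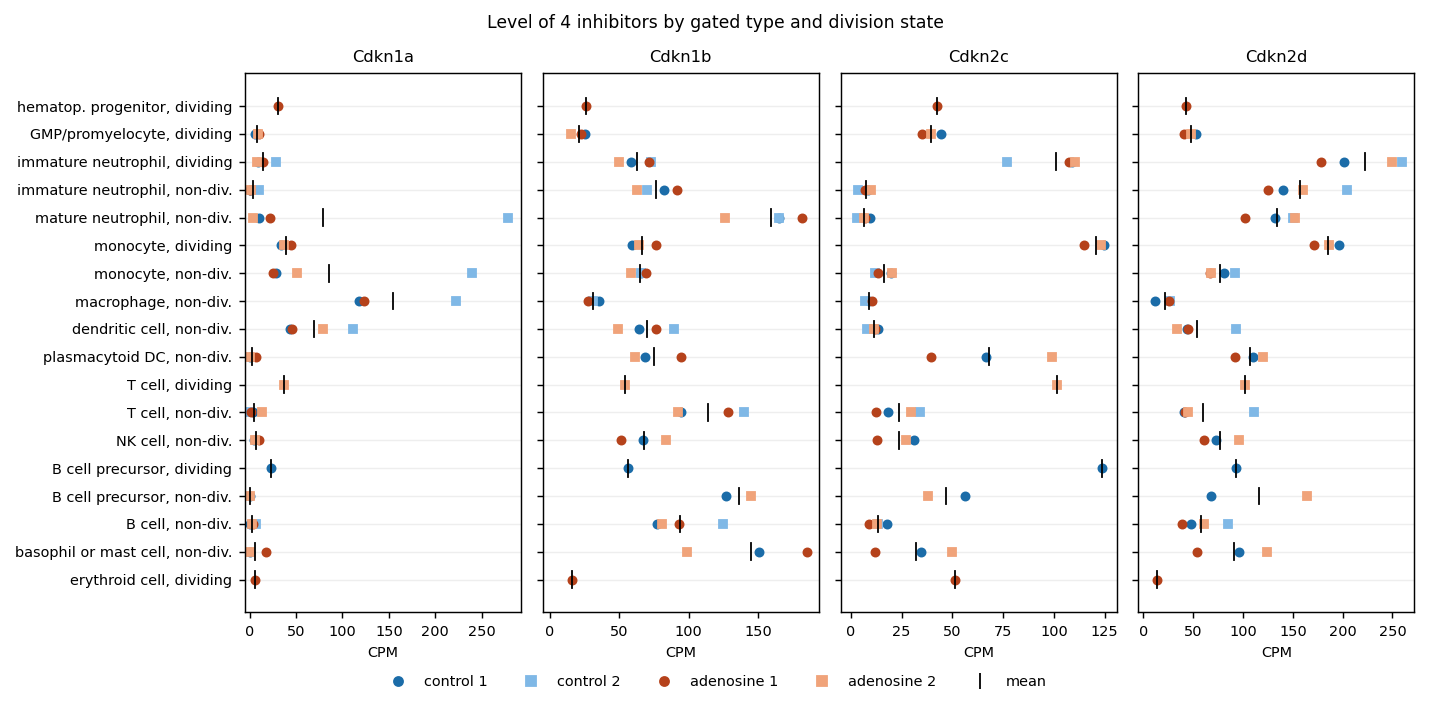
Level of Cdkn1a, Cdkn1b, Cdkn2c and Cdkn2d in CPM (horizontal axis, linear, own scale for each gene) in gated types and division states (vertical axis), with 1 point for each library that holds at least 25 such cells and a bar at the mean of those libraries. Cdkn2c lies above 77 CPM in every library's dividing immature neutrophils and below 11 CPM in the non-dividing ones, and control 2 lies far to the right for Cdkn1a in mature neutrophils and monocytes.

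Whether the adenosine microgel was accompanied by another level of the inhibitors was asked in the sum of all cells and in the non-dividing cells of the 5 types with at least 50 cells in each library. No member passed edgeR's quasi-likelihood test with Benjamini-Hochberg adjustment over all genes at 0.05 in any of the 6 comparisons. All 7 members were tested in the sum of all cells, where 0 of 16368 genes (0%) were called, 420 genes had an unadjusted p under 0.05 and DESeq2 called 14. In mature neutrophils 4 members were tested, and 0 of 9533 genes (0%) were called (296 unadjusted, 22 by DESeq2). In monocytes 4 members were tested, and 0 of 11493 genes (0%) were called (195 unadjusted, 4 by DESeq2). In immature neutrophils 3 members were tested, and 0 of 10273 genes (0%) were called (139 unadjusted, 4 by DESeq2). In dendritic cells 5 members were tested, and 0 of 9174 genes (0%) were called (128 unadjusted, 0 by DESeq2). In B cells 3 members were tested, and 0 of 8789 genes (0%) were called (57 unadjusted, 0 by DESeq2). The 1 member with an unadjusted p under 0.05 was Cdkn2a in the sum of all cells, and DESeq2 called no member in any of the 6. No type had 50 dividing cells in every library, so dividing cells were not tested between treatments. A p that misses the threshold does not show that the levels were alike, and the values of each member are given below.

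Cdkn2c, which encodes p18 and is known in blood progenitors and developing lymphocytes, was higher in dividing cells in each type and library compared here. In immature neutrophils its level in dividing cells was 109 CPM in control 1, 77.1 in control 2, 108 in adenosine 1 and 110 in adenosine 2. In the non-dividing cells of the same libraries it was 8.60, 3.62, 6.99 and 10.1 CPM. The states did not overlap, and every library's dividing cells stood above its non-dividing ones. The difference was 3.33 on the log2 scale (SE 0.11, adjusted p = 8.13e-13, edgeR with the library as a block, n = 4 libraries). Of 10642 genes tested in that comparison, 34.1% were called higher and 38.9% lower in dividing cells, and 3 of the 4 members tested were called, 2 of them higher and 1 lower.

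Monocytes gave the same order for Cdkn2c. Control 2 held only 18 dividing monocytes, which left 3 libraries. Dividing monocytes had 125 CPM in control 1, 115 in adenosine 1 and 123 in adenosine 2, against 19.8, 13.3 and 20.2 CPM in the non-dividing ones. The states again did not overlap (log2 difference 2.75, SE 0.11, adjusted p = 1.76e-08, edgeR, n = 3 libraries). Of 11801 genes tested, 29.3% were called higher and 29% lower in dividing monocytes, and 2 of the 4 members tested were called, both higher. Division was also read in other types in single libraries, without a test. Dividing T cells of adenosine 2 had 101 CPM of Cdkn2c against 29.9 in its non-dividing T cells, and dividing B cell precursors of control 1 had 124 against 56.1.

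Dividing cells held more RNA, and the Cdkn2c difference was also measured at equal depth. The median cell held 8272 to 13105 UMIs among dividing immature neutrophils and 3479.5 to 5900 among non-dividing ones. When each cell was thinned to 1000 UMIs, cells with a Cdkn2c UMI were 11.4%, 4.26%, 9.28% and 11.0% of the dividing immature neutrophils, in the order control 1, control 2, adenosine 1 and adenosine 2. Among the non-dividing ones they were 0.739%, 0.481%, 0.539% and 0.980%. Unthinned shares were 53.2% to 60.0% and 2.40% to 4.22%. The control 2 value rests on 2 of 47 cells, with a 95% Wilson interval of 1.17% to 14.2%, which overlaps the interval of its non-dividing cells (0.0849% to 2.67%). In the other 3 libraries the intervals did not overlap. Wilson and Poisson intervals here cover counting error only.

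Outside dividing cells Cdkn2c was highest in plasmacytoid dendritic cells, with 66.4 CPM in control 1, 39.3 in adenosine 1 and 98.9 in adenosine 2, and in non-dividing B cell precursors, with 56.1 in control 1 and 37.8 in adenosine 2. The lowest levels were those of mature neutrophils, at 9.44, 3.01, 7.02 and 6.56 CPM in control 1, control 2, adenosine 1 and adenosine 2. Neighbours in this order, such as macrophages, dendritic cells, B cells and non-dividing immature neutrophils, had library ranges that overlapped. In the sum of all cells Cdkn2c was 41.7, 12.2, 39.5 and 49.6 CPM, lowest in control 2, the library with few dividing cells. Control 1 lay between the adenosine libraries, so the treatments overlapped, and the difference was 0.61 (SE 0.56, adjusted p = 0.873, edgeR). It was 0.03 without control 2 and 1.53 without control 1, not called in either. Within non-dividing types the treatment difference of Cdkn2c ran from -0.57 in B cells to 0.23 in immature neutrophils.

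Cdkn2d, which encodes p19Ink4d and is known in cells that stop dividing as they mature, was present across the neutrophil line. Its level in dividing immature neutrophils was 201, 259.6, 178 and 249.5 CPM in control 1, control 2, adenosine 1 and adenosine 2, against 139.8, 203.9, 124.8 and 160.2 in the non-dividing cells. Each library's dividing cells were 1.27 to 1.56 times its non-dividing ones, although the ranges of the states overlapped across libraries. Whether that comparison was called depended on the setting. With TMM scaling, in which the median gene had a difference of -0.08, the log2 difference of Cdkn2d was 0.15 (SE 0.08, adjusted p = 0.0849, edgeR) and was not called. With scaling by library size alone the median gene was at 0.29 and Cdkn2d at 0.52, and it was called. It was also called without control 2 (0.25, adjusted p = 0.00209) and by DESeq2 (0.23, adjusted p = 0.0379). The share of calls that were higher in dividing cells moved from 46.7% to 64.7% between those scalings. At equal depth, cells with a Cdkn2d UMI were 13.3%, 27.7%, 15.2% and 21.7% of dividing immature neutrophils, in the same library order. Among the non-dividing ones they were 13.8%, 17.8%, 11.6% and 15.3%, so control 1 ran the other way. The Wilson intervals overlapped in control 1, control 2 and adenosine 1 but not in adenosine 2. Unthinned shares were 68.2% to 85.1% and 36.5% to 68.8%.

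In monocytes Cdkn2d stood higher in dividing cells, whichever scaling was used. The level was 197 CPM in control 1, 171 in adenosine 1 and 187 in adenosine 2 for dividing monocytes, and 80.8, 67.2 and 68.1 for non-dividing ones. No dividing value overlapped a non-dividing one, and the ratio within a library was 2.43 to 2.74. The log2 difference was 1.36 (SE 0.07, adjusted p = 1.29e-07, edgeR, n = 3 libraries), with 1.22 to 1.45 over all settings tried. At equal depth, cells with a Cdkn2d UMI were 12.7% to 17.5% of dividing monocytes and 5.13% to 7.67% of non-dividing ones (unthinned 81.6% to 82.8% and 43.0% to 48.4%).

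Across types Cdkn2d was highest in dividing immature neutrophils and dividing monocytes and lowest in macrophages (11.8 to 26.5 CPM over control 1, control 2 and adenosine 1), in dividing erythroid cells (13.6 CPM in adenosine 1), in non-dividing granulocyte-monocyte progenitors and promyelocytes (12.8 CPM in 38 cells of adenosine 1) and in plasma cells (7.04 CPM in adenosine 1). In dividing granulocyte-monocyte progenitors and promyelocytes, the stage before immature neutrophils, it was 52.5 CPM in control 1, 41.0 in adenosine 1 and 48.1 in adenosine 2. Those 3 values lay below every library's dividing immature neutrophils. Between treatments its fitted log2 difference was negative in all 6 comparisons, from -0.90 in dendritic cells to -0.24 in mature neutrophils, with none called. The sign in immature neutrophils and in B cells rested on control 2: without it the differences were 0.05 and 0.10. In mature neutrophils it was 0.09 without adenosine 1.

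**Figure D2:**
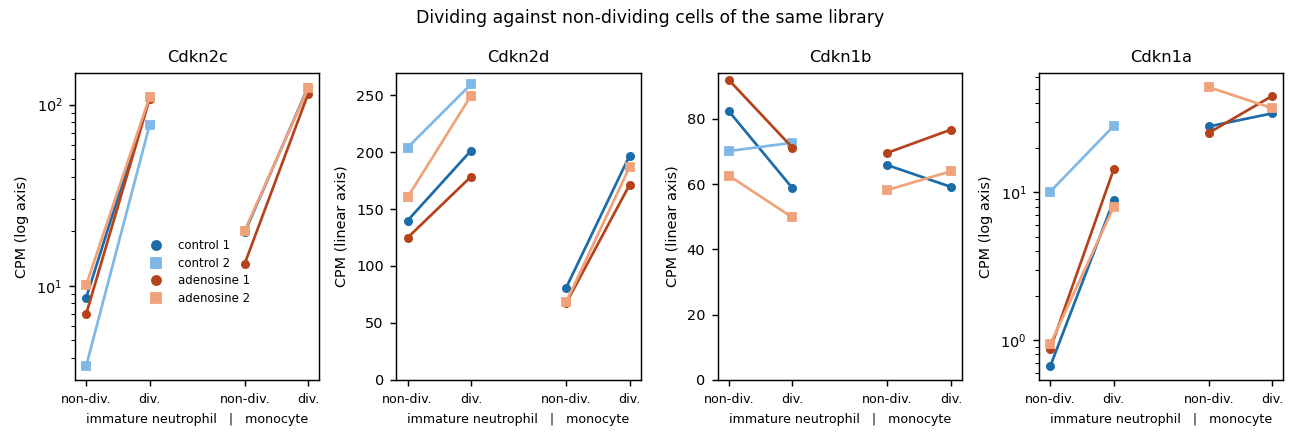
Levels in CPM (vertical axes, logarithmic for Cdkn2c and Cdkn1a, linear from 0 for Cdkn2d and Cdkn1b) in non-dividing and dividing immature neutrophils and monocytes, with a line joining the states of 1 library. All lines of Cdkn2c and Cdkn2d run upward, those of Cdkn1b run downward in 3 of 4 libraries in immature neutrophils, and those of Cdkn1a run upward in immature neutrophils and in both directions in monocytes.

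Cdkn1b, which encodes p27, had a lower level in dividing than in non-dividing immature neutrophils in every library but control 2. Its level in the dividing cells was 58.8, 72.7, 71.2 and 49.8 CPM in control 1, control 2, adenosine 1 and adenosine 2, against 82.3, 70.2, 91.9 and 62.6 in the non-dividing ones. The ratio was 0.714, 0.775 and 0.795 in control 1, adenosine 1 and adenosine 2 and 1.04 in control 2, and the ranges of the states overlapped across libraries. The fitted difference was -0.73 on the log2 scale (SE 0.09, adjusted p = 1.65e-06, edgeR, n = 4 libraries), and it ran from -0.75 to -0.35 over all settings, negative and called in each. The median gene was at -0.08 with TMM scaling and at 0.29 with library size alone. At equal depth, cells with a Cdkn1b UMI were 6.73%, 4.26%, 6.06% and 5.68% of the dividing cells. Among the non-dividing ones they were 8.49%, 8.65%, 9.04% and 6.76%, and the Wilson intervals overlapped in each library. Unthinned shares were larger in dividing cells, at 39.5% to 74.5% against 22.9% to 30.8%. In monocytes the dividing cells had 59.2, 76.7 and 63.9 CPM in control 1, adenosine 1 and adenosine 2 and the non-dividing ones 65.8, 69.6 and 58.2. The order differed between libraries there, and the difference was 0.03 (SE 0.09, adjusted p = 0.759, edgeR).

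Along the neutrophil line the level of Cdkn1b was larger at each later gated stage, apart from the step within control 2 from dividing to non-dividing immature cells. Dividing progenitors and promyelocytes had 25.1 CPM in control 1, 22.6 in adenosine 1 and 15.2 in adenosine 2. Mature neutrophils had 165 CPM in control 1, 165 in control 2, 182 in adenosine 1 and 126 in adenosine 2. No library's mature neutrophils overlapped any library's immature ones, and the mature level was 1.98 to 2.35 times that of the non-dividing immature cells of the same library. At equal depth 11.9% to 16.5% of mature and 6.76% to 9.04% of non-dividing immature neutrophils held a Cdkn1b UMI, against 22.8% to 33.2% and 22.9% to 30.8% unthinned. Stages were compared as values, and the step between gated stages was not tested.

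**Figure D3:**
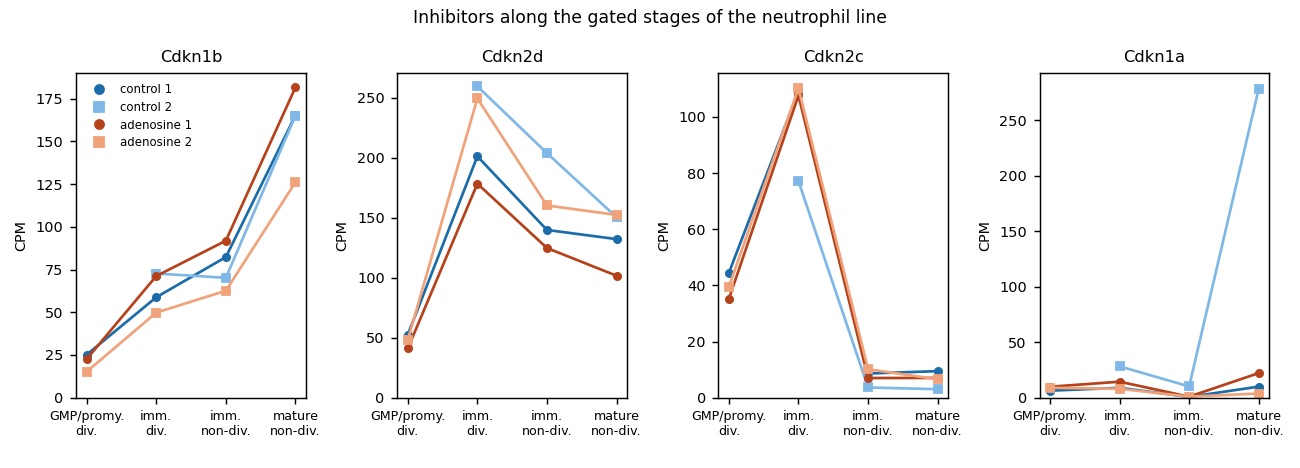
Level in CPM (vertical axes, linear, own scale for each gene) of Cdkn1b, Cdkn2d, Cdkn2c and Cdkn1a at 4 gated stages of the neutrophil line (dividing progenitors and promyelocytes, dividing immature, non-dividing immature and non-dividing mature neutrophils), with a line for each library. Control 2 lacks the first stage. Cdkn1b ends between 126 and 182 CPM in mature neutrophils, Cdkn2c and Cdkn2d peak in dividing immature neutrophils, and Cdkn1a stands out only in the mature neutrophils of control 2.

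In other types Cdkn1b was high in basophils or mast cells (151 CPM in control 1, 185 in adenosine 1 and 99.2 in adenosine 2) and in non-dividing B cell precursors (127 in control 1 and 145 in adenosine 2). Non-dividing T cells had 94.8, 140 (33 cells), 128 and 92.7 CPM in control 1, control 2, adenosine 1 and adenosine 2. These types overlapped with mature neutrophils in their ranges. Macrophages had 27.3 to 35.5 CPM in control 1, control 2 and adenosine 1, plasma cells of adenosine 1 had 24.1 and dividing erythroid cells of adenosine 1 had 16.4 (Poisson interval 12.1 to 21.7, 76 cells). Between treatments Cdkn1b was 78.7, 105, 76.7 and 66.3 CPM in the sum of all cells, highest in control 2. The adenosine libraries lay below the controls by a margin smaller than the difference between the controls, and the log2 difference was -0.57 (SE 0.33, adjusted p = 0.873, edgeR). Within types it ran from -0.37 in dendritic cells to -0.14 in monocytes. In immature neutrophils it was -0.16 with TMM scaling and 0.01 with library size alone.

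Cdkn1a, which encodes p21 and is induced by p53 and by other signals, showed a wide spread between libraries of the same treatment. In mature neutrophils its level was 9.95 CPM in control 1, 278 in control 2, 22.1 in adenosine 1 and 3.71 in adenosine 2. In non-dividing monocytes it was 27.9, 239, 25.3 and 51.5 CPM. Control 2 stood far above the 3 other libraries in both types, and control 1 lay among or beside the adenosine libraries. The fitted treatment difference was -3.72 in mature neutrophils (SE 1.63, adjusted p = 0.904, edgeR) and -1.93 in monocytes (SE 1.04, adjusted p = 1.00). Without control 2 these were 0.39 and 0.50, and in the sum of all cells -2.66 (SE 1.23, adjusted p = 0.873) turned to 0.35. Without control 1, in contrast, the differences were -4.69 in mature neutrophils and -2.79 in monocytes. Control 2 was then the only control, so these values rest on it. With no filter on low counts and all libraries, Cdkn1a was called lower with adenosine in both types (-3.78, adjusted p = 3.70e-10, and -1.90, adjusted p = 6.04e-05, edgeR). Other genes were called in both types at that setting too, as counted below.

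The share of cells in which Cdkn1a was counted differed between libraries as its level did. Cells with at least 1 Cdkn1a UMI were 1.35% of mature neutrophils in control 1, 30.9% in control 2, 2.05% in adenosine 1 and 0.670% in adenosine 2. Thinned to 1000 UMIs, the shares were 0.781%, 17.1%, 1.19% and 0.377%. In B cells, taken as a type with little p21 RNA, the unthinned shares were 0%, 2.86%, 1.41% and 0.806%, and no thinned B cell held a UMI. Depth differed little beside this, with medians of 2126, 2672, 2059 and 2068 UMIs in mature neutrophils and 3764.5 to 4047 in B cells. Mature neutrophils with 5 or more Cdkn1a UMIs numbered 2, 179, 4 and 0, and the highest cells held 6, 49, 15 and 2 UMIs.

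Which mature neutrophils were captured differed between libraries in the same way. Of control 2's mature neutrophils, 51.5% were in cluster 3, 31.5% in cluster 9 and 9.98% in cluster 14. Of control 1's, 2.47% were in cluster 3 and 1.76% in cluster 9, and of adenosine 1's, 2.64% and 1.14% were in clusters 3 and 14. Cells of those clusters also held Cdkn1a in the other libraries that had them. Cluster 3 had 76.6 CPM in control 1, 179 in control 2 and 165 in adenosine 1. Cluster 9 had 208 in control 1 and 442 in control 2, and cluster 14 had 377 in control 2 and 1170 in adenosine 1 (61 UMIs in 25 cells). In clusters 1, 2, 5 and 7, which held most mature neutrophils of the other libraries, control 2 had 8.66, 8.60, 8.83 and 0 CPM, and the other libraries 0 to 8.06. Those control 2 values rest on only 1, 2, 2 and 0 UMIs in 33, 81, 94 and 62 cells. The clusters were made from all variable genes of these cells, so their Cdkn1a levels are a description and no test. Il1b, which encodes a cytokine of activated neutrophils and was one of the gate's markers, was 1619, 6954, 1390 and 1451 CPM in mature neutrophils, also highest in control 2. Its part in the result was not tested, and the state of the cells captured cannot be told apart from the library.

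**Figure D4:**
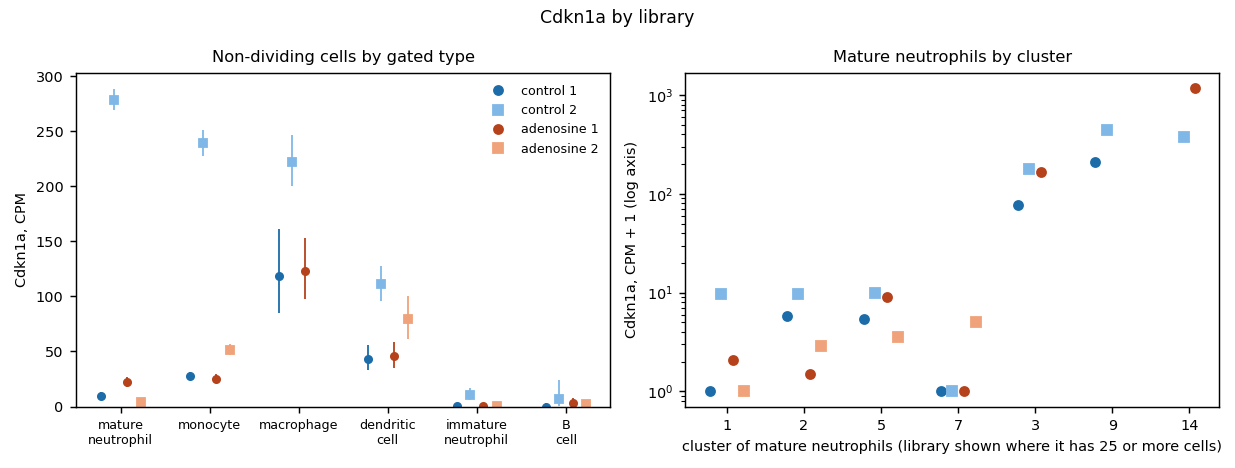
Left, Cdkn1a in CPM (vertical axis, linear) in non-dividing cells of 6 gated types in each library, with exact 95% Poisson intervals. Right, Cdkn1a in CPM plus 1 (logarithmic axis) in mature neutrophils by cluster, for libraries with at least 25 cells. Control 2 is at 278 CPM in mature neutrophils where the others are at 3.71 to 22.1, and clusters 3, 9 and 14 are high in each library shown there.

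Genes that p53 is known to induce did not all share that pattern. The summed level of 14 p53 list genes (p53 and its textbook targets without Cdkn1a) in mature neutrophils was 1212, 1357, 1359 and 1390 CPM in control 1, control 2, adenosine 1 and adenosine 2, and 8 of the 14 were highest in control 2. In monocytes it was 516, 611, 491 and 582 CPM, with 5 of 14 highest in control 2. The share of all genes that were highest in control 2 was not counted, so neither count can be read as a trait of p53 genes. Of 4 examples chosen after their values were seen, Pmaip1, which encodes the death protein Noxa, was 49.6, 201, 52.5 and 57.6 CPM in mature neutrophils. Bax, another death gene, was 28.3, 101, 19.1 and 33.7. Both were highest in control 2, like Cdkn1a. Mdm2, which encodes the ubiquitin ligase of p53, was 120, 117, 141 and 112 CPM, with control 2 inside the range of the others. Trp53inp1 was 265, 54.7, 326 and 276 CPM, lowest in control 2.

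With division, Cdkn1a rose in immature neutrophils. Dividing cells had 8.83, 28.2, 14.4 and 7.98 CPM in control 1, control 2, adenosine 1 and adenosine 2, and non-dividing cells 0.669, 10.1, 0.874 and 0.941. Each library's dividing cells were above its non-dividing ones, and the ranges overlapped only through control 2's non-dividing cells. The difference was 2.72 (SE 0.32, adjusted p = 1.74e-06, edgeR, n = 4 libraries), with 1.87 to 3.36 over all settings. The non-dividing levels rest on 7, 14, 8 and 8 UMIs in the same library order. Cdkn1a did not pass the count filter in those cells alone, so it entered this test through the dividing cells. In monocytes dividing cells had 34.3, 44.9 and 37.1 CPM in control 1, adenosine 1 and adenosine 2 and non-dividing cells 27.9, 25.3 and 51.5. Adenosine 2 ran against the other libraries there, and the difference was 0.16 (SE 0.20, adjusted p = 0.508, edgeR). It was 0.55 (adjusted p = 0.00253) without adenosine 2, -0.13 without adenosine 1 and -0.50 (adjusted p = 0.0162) with types taken from clusters. Macrophages had 118, 222 and 123 CPM in control 1, control 2 and adenosine 1, the highest mean of any type with 25 cells, with control 2 again highest. Dendritic cells had 43.2, 111, 45.5 and 79.3 CPM, where both treatments overlapped.

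Since members behaved differently with division in the 2 types, the difference between them was tested in the 3 libraries that held both, a comparison added after the levels had been seen. All 4 members tested were called. Of 12389 genes in that test, 19.4% were called with a larger and 26.2% with a smaller division difference in monocytes than in immature neutrophils. The difference in monocytes minus that in immature neutrophils was -3.27 for Cdkn1a (SE 0.43, adjusted p = 9.14e-06) and -0.74 for Cdkn2c (SE 0.16, adjusted p = 0.00109) by edgeR. It was 0.98 for Cdkn2d (SE 0.10, adjusted p = 7.96e-07) and 0.62 for Cdkn1b (SE 0.12, adjusted p = 0.000426). The Cdkn1a value rests on 7, 8 and 8 UMIs in non-dividing immature neutrophils of control 1, adenosine 1 and adenosine 2. Cdkn1a did not pass the count filter in those cells alone, so it entered this test through dividing cells and monocytes. DESeq2 also called these 4 members, and each kept its sign and call in every setting tried. Here the scaling moved the median gene from -0.11 (TMM) to -0.29 (library size alone), and the share of calls in the higher direction from 42.6% to 29.0%.

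Cdkn2a, whose products p16 and p19Arf share 1 count and cannot be told apart here, was found in different types in different libraries. In the sum of all cells it had 22 UMIs in control 1, 4 in control 2, 65 in adenosine 1 and 280 in adenosine 2, which are 0.442, 0.136, 1.25 and 4.83 CPM. The adenosine libraries lay above both controls. The log2 difference was 3.26 (SE 1.02, unadjusted p = 0.0251, adjusted p = 0.873, edgeR), and leaving out 1 library at a time gave 1.88 to 4.17, none called. T cells held 262 of the 280 UMIs in adenosine 2, but 1 of 22 in control 1, 0 of 4 in control 2 and 4 of 65 in adenosine 1. Without T cells the levels were 0.430, 0.137, 1.20 and 0.394 CPM. Without T cells and mesenchymal cells they were 0.431, 0.103, 0.475 and 0.394 CPM. In these remaining cells the intervals of control 1, adenosine 1 and adenosine 2 overlapped one another. That of control 2 (0.0213 to 0.302) overlapped those of control 1 and adenosine 2 but lay below that of adenosine 1 (0.304 to 0.707).

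Adenosine 2 was the library with many T cells. It held 918 non-dividing and 229 dividing T cells, where control 1, control 2 and adenosine 1 held 142, 33 and 180 non-dividing and 1, 2 and 3 dividing ones. Most of adenosine 2's T cells had a UMI of Cd8a or Cd8b1 and none of Cd4, and were counted as CD8 T cells. Among its 220 dividing CD8 T cells, 85 held a Cdkn2a UMI (156 UMIs, 37.1 CPM, Poisson interval 31.5 to 43.4), and its 816 non-dividing ones had 12.3 CPM (9.86 to 15.1). Non-dividing CD8 T cells had 2.40 CPM in control 1 (1 UMI, 0.0607 to 13.4) and 6.94 in adenosine 1 (3 UMIs, 1.43 to 20.3). Control 2 had 0 UMIs in 14 such cells, where 3 counts would be 26.5 CPM. Intervals of the non-dividing CD8 T cells overlapped between libraries. A difference among them was not tested, and the overlap does not show that they were alike. The 49 non-dividing CD4 T cells of adenosine 2 had 12 UMIs in 5 cells (36.6 CPM, 18.9 to 63.9).

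**Figure D5:**
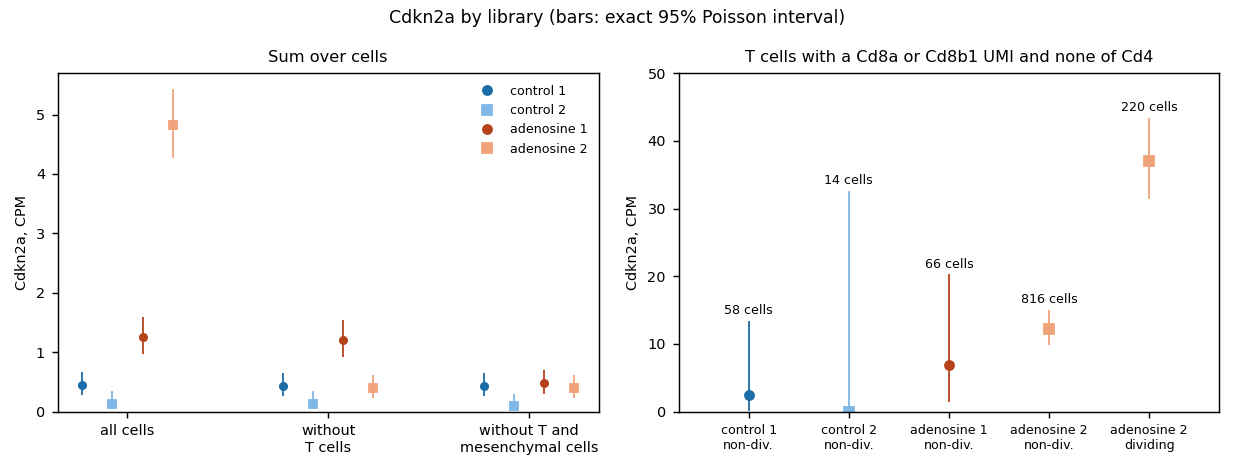
Left, Cdkn2a in CPM (vertical axis, linear) in each library over all cells, without T cells, and without T and mesenchymal cells. Right, Cdkn2a in CPM in T cells with a UMI of Cd8a or Cd8b1 and none of Cd4, with the number of cells above each bar. Bars are exact 95% Poisson intervals. Adenosine 2 falls from 4.83 to 0.394 CPM without T cells, and its dividing CD8 T cells are at 37.1 CPM.

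In adenosine 2's T cells 4 members were higher in dividing than non-dividing cells and Cdkn1b and Cdkn2b were lower, with 1 library and so no test. Dividing and non-dividing T cells had 36.7 and 12.9 CPM of Cdkn2a, 37.4 and 12.8 of Cdkn1a, 101 and 29.9 of Cdkn2c, and 102 and 45.0 of Cdkn2d. For Cdkn1b the levels were 54.0 and 92.7 CPM, and for Cdkn2b 0.462 (2 UMIs) and 2.01 (16 UMIs). In the other libraries other types led for Cdkn2a. Mesenchymal cells held 37 of adenosine 1's 65 UMIs, in 10 cells. Dividing B cell precursors of control 1 had 12 UMIs in 10 of 43 cells (12.5 CPM, 6.44 to 21.8), and its 48 non-dividing precursors had 0 UMIs. Macrophages and mature neutrophils had almost none, with 0 UMIs in 278 macrophages of control 1, control 2 and adenosine 1 and 1 UMI in 10445 mature neutrophils.

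Cdkn1c, which encodes p57 and is known in stem cells and in skeletal tissue, was concentrated in few mesenchymal cells in adenosine 1, where they held 106 of 162 UMIs. In the other libraries mesenchymal cells held 0 of 28 UMIs (control 1), 4 of 27 (control 2) and 0 of 34 (adenosine 2), and non-dividing monocytes held 8, 9 and 7. Mesenchymal cells numbered 1, 8, 21 and 1 in control 1, control 2, adenosine 1 and adenosine 2, too few to compare treatments. In adenosine 1, 11 of the 21 held a Cdkn1c UMI. The same 21 cells held 37 Cdkn2a UMIs in 10 cells, 10 Cdkn2b UMIs in 4 and 63 Cdkn1a UMIs in 12. Hematopoietic progenitors that were not dividing had 4 Cdkn1c UMIs in 20 cells of control 1, 5 in 30 of adenosine 1 and 3 in 17 of adenosine 2. Over all cells the levels were 0.563, 0.921, 3.12 and 0.586 CPM, with adenosine 1 apart, and without T and mesenchymal cells they were 0.574, 0.793, 1.09 and 0.635. The treatment difference was 1.07 (SE 0.94, adjusted p = 0.873, edgeR).

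Cdkn2b, which encodes p15, the Ink4 protein induced by TGF-beta, had its largest pooled share in dendritic cells. They had 11 UMIs in control 1, 17 in control 2, 7 in adenosine 1 and 4 in adenosine 2, in 3, 10, 4 and 3 cells. The levels were 7.67, 9.24, 5.30 and 4.60 CPM, with both adenosine libraries below both controls and all 4 Poisson intervals overlapping. The difference was -0.84 (SE 0.62, adjusted p = 1.00, edgeR). In dendritic cells Cdkn2b passed the count filter only through the control libraries, where it was higher. The fitted difference is therefore no separate support for that order. In adenosine 2 T cells held more of the gene's 26 UMIs (18) than dendritic cells did, with 16 of them in 11 non-dividing cells. In adenosine 1 mesenchymal cells held 10 of 26 UMIs. Over all cells Cdkn2b was 0.462, 1.23, 0.501 and 0.448 CPM, highest in control 2, and the difference was -1.05 (SE 0.77, adjusted p = 0.873, edgeR). Without control 2 it was -0.05 (adjusted p = 1.00).

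The partners of the inhibitors were read from 6 lists in the same division comparisons. Their counts stand beside a background in which 34.1% of all genes tested rose and 38.9% fell in immature neutrophils, and 29.3% rose and 29% fell in monocytes. Of the G1 cyclins and kinases that the inhibitors bind, 5 of 7 tested rose and 2 fell with division in immature neutrophils (median log2 difference 0.97, all genes -0.08), and 7 of 8 rose and 1 fell in monocytes (1.68, all genes -0.01). Ccne2, which encodes a cyclin E, rose by 5.59 and 5.17 on the log2 scale in the 2 types, and Cdk4, the kinase that p18 and p19Ink4d bind, by 2.56 and 1.58. Of the retinoblastoma relatives and E2F factors, 6 of 9 rose and 1 fell in immature neutrophils (median 0.53) and 7 rose and 1 fell in monocytes (1.13). E2f8, a repressor E2F, rose by 3.44 and 3.24, and Rbl1, which encodes the retinoblastoma relative p107, by 3.46 and 1.79. These lists hold genes with textbook roles in the cycle, and none of them was used to call a cell dividing. Other genes of the cycle made that call, so a rise of these lists is not independent of it.

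Of 6 genes for the turnover of p27 and p21, 5 rose in immature neutrophils (median 0.69) and 3 in monocytes (0.39), with none lower. Skp2, the F-box protein that marks p27 for destruction, rose by 4.88 and 1.88, and its cofactor Cks1b by 4.10 and 3.93. Of the Polycomb genes that repress the Cdkn2a locus, 6 of 7 rose and 1 fell in immature neutrophils (median 1.52), and 3 of 8 rose and 2 fell in monocytes (0.20), shares near the background there. Ezh2, the methyltransferase of that complex, rose by 4.13 and 3.08. Bmi1 rose by 1.92 in immature neutrophils.

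The last lists held p53 genes and other genes of cycle exit. Of the p53 list, 3 of 10 rose, near the background, and 6 fell in immature neutrophils (median -0.92), and 1 of 11 rose and 7 fell in monocytes (-0.50). Trp53inp1 fell by 2.98 and 1.88 and Btg2, an antiproliferative gene, fell by 2.45 and 1.08. Cdkn1a, itself a p53 target but not in that list, rose in immature neutrophils as given above. Of 8 other exit genes, 0 rose and 7 fell in immature neutrophils (median -1.79), and 1 rose and 7 fell in monocytes (-0.64). Tob1 fell by 2.38 in immature neutrophils and Klf2 fell by 2.05 and 1.35, and Klf4 rose by 1.01 in monocytes. With library size alone as the scaling, 5 exit genes fell in immature neutrophils rather than 7. Between treatments no gene of the 6 lists was called in any comparison.

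The genes whose level followed each member most closely over gated types were found by the Pearson correlation of log2(CPM + 10) over 15 profiles of type and division state, each with at least 100 cells and averaged over libraries. The profiles share libraries and differ in depth, so these values are descriptions. For Cdkn2c they were Rhno1 (0.92), Paxip1 (0.92) and Lockd (0.89). Lockd, a long non-coding RNA at chr6:134929092-134956798, starts 3578 bases beyond the end of Cdkn1b on the same strand. For Cdkn1b they were Rb1cc1 (0.89), Mark2 (0.87) and Khnyn (0.86), and for Cdkn2d Lbr (0.80), Grk2 (0.76) and Triobp (0.75). Cdkn1a was nearest to Gnpda1 (0.95), Cx3cr1 (0.90) and Coro1c (0.89). For Cdkn2a, Tff1 (0.996), Mlf1 (0.987) and Nefh (0.984) came closest, which rests on the dividing T cells of 1 library. Between members the correlation ran from -0.42 for Cdkn1a with Cdkn1b to 0.51 for Cdkn2c with Cdkn2d. These pairs were not picked as the highest of many genes, so they cannot be ranked against the values above.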

How the data were processed

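Per the labels, libraries were made with a 10x Genomics 3′ kit and sequenced on an MGISEQ-2000. Per the submitters' processing notes, Cell Ranger 7.0.0, bcl2fastq and the mm10 build were used. The annotation release is not given in the sources used here, nor is the treatment of introns. The authors deposited raw UMI counts per gene and barcode.

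Cells with fewer than 200 genes or over 10% mitochondrial counts were removed, as were the highest doublet scores (0.8% per 1000 barcodes). Types were gated per cell by marker scores, with score limits chosen after seeing the data, and cells with at least 20 UMIs per 10000 and 5 UMIs of 43 division genes were called dividing. 6.21% of cells lay between 10 and 40 per 10000. Clusters (scanpy 1.11.5, Leiden, 2000 variable genes, 30 components, resolution 1) served as an alternative and gave the same type to 94.8% of the cells that both named.

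Counts were summed per library, type and state and tested with edgeR 4.0.16 (quasi-likelihood, TMM, filterByExpr, Benjamini-Hochberg over all genes at 0.05), with library as a block for division. DESeq2 1.42.0, other scalings, no filter, left-out libraries, doublets kept and other cuts were alternatives. Scripts were tested on simulated counts. Named genes were the 7 members and, per list and comparison, the 4 with the smallest p, from which examples are given. Members, lists and markers were chosen with earlier results of these data known. Gene positions are from GENCODE M21, which matched 32235 of 32285 identifiers.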

Additional observations from a re-analysis of the deposited data

Results flagged for a closer look

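The division difference (dividing minus non-dividing cells, log2) of 4 members differed between monocytes and immature neutrophils by an interaction test in edgeR over the 3 libraries that held both. The comparison was added after the levels had been seen, and 19.4% of the 12389 genes tested were called with a larger and 26.2% with a smaller difference in monocytes. For Cdkn1a the value in monocytes minus that in immature neutrophils was -3.27, because its level rose with division in immature neutrophils and ran in both directions in monocytes. Non-dividing immature neutrophils held only 7, 8 and 8 Cdkn1a UMIs in control 1, adenosine 1 and adenosine 2. Cdkn1a did not pass the count filter in those cells alone, so it entered this test through dividing cells and monocytes. Cdkn2c rose in both types, by less in monocytes (-0.74). Cdkn2d had the larger difference in monocytes (0.98), and Cdkn1b, which fell in immature neutrophils, was at 0.62. Depth beside this was a median of 17296 to 18342 UMIs in dividing monocytes and 8272 to 10819 in dividing immature neutrophils of those libraries, whose part in the result was not tested.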

How the results depend on the processing

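The treatment comparisons changed most between settings, and the cause was not tested. DESeq2 called 14 genes in the sum of all cells, 4 in immature neutrophils, 22 in mature neutrophils and 4 in monocytes, where edgeR called 0. With no filter on low counts edgeR called 19 genes in B cells, 46 in dendritic cells, 86 in immature neutrophils, 433 in mature neutrophils and 364 in monocytes, and 1 member, Cdkn1a, in each of the last 2 types. The genes tested at that setting are not counted here, so this 1 member cannot be set beside a share of all genes. Library size alone called 1 gene in immature neutrophils. Leaving out 1 library at a time, with the lone library of a treatment assumed to vary like the other treatment, called 0 genes in the sum of all cells, 7 to 12 in B cells, 1 to 188 in dendritic cells, 7 to 77 in immature neutrophils, 0 to 1483 in mature neutrophils and 0 to 237 in monocytes, and 0 to 1 members in the last 2 types. Deviations of same-numbered libraries from their treatment means had a correlation of -0.11. With 2 libraries a treatment the crossed value, 0.11, is the same number with its sign turned, so this cannot decide pairing. The numbers were not taken to pair the libraries. A replicate block called 32 genes in B cells and 2 in immature neutrophils, and a crossed pairing, added after seeing the data, 3 in B cells, 15 in dendritic cells, 22 in immature neutrophils and 8 in mature neutrophils. In dividing against non-dividing monocytes, leaving out the library block called 4200 genes.

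Leaving out 1 library at a time turned the sign of several values. Cdkn1a ran from -3.60 to 0.35 in all cells, -5.40 to 0.39 in mature neutrophils and -2.79 to 0.50 in monocytes, Cdkn1b in B cells from -0.64 to 0.21, and Cdkn2d from -0.86 to 0.10 in B cells and -0.813 to 0.0519 in immature neutrophils, each positive only without control 2. Cdkn2d in mature neutrophils ran from -0.64 to 0.0851 (without adenosine 1). With division in monocytes Cdkn1a ran from -0.13 (without adenosine 1) to 0.55 and Cdkn1b from -0.0198 to 0.12. Cdkn1b in immature neutrophils was 0.0128 with library size alone. With division in monocytes, types from clusters gave -0.50 for Cdkn1a and -0.20 for Cdkn1b, and a division cut of 10 gave -0.0248 for Cdkn1b. Among values of members under alternatives, 330 kept sign and side of the threshold, 12 became called and 14 changed sign.

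With 2 libraries a treatment the smallest exact permutation p for a single value is 0.333, and control 2 held 47 dividing immature neutrophils. Cdkn2a, Cdkn1c and Cdkn2b had 371, 251 and 111 UMIs in 31280 cells, which limits what can be seen of them by type.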

Other observations

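Erythroid cells of adenosine 1 had the widest step of Cdkn1b between states in 1 library. The 22 non-dividing erythroid cells held 36 UMIs (385 CPM, Poisson interval 269 to 533), and the 76 dividing ones were at 16.4 CPM (12.1 to 21.7). The other libraries held 0 to 3 non-dividing erythroid cells, so this has no replicate and no test.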
